A study of Mus musculus with 27 samples.

Results

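The collagen genes are the 43 of 20156 genes in the expression tables whose symbol has the form Col, a number, the letter a and a number. The rule reads the symbol only and uses no measured value. Collagens are secreted or membrane-bound proteins in which 3 chains wind into a triple helix. Fibrillar collagens give connective tissue its tensile strength, network-forming collagens build basement membranes, and others sit on fibril surfaces or in the cell membrane. Fibroblasts are the classical source of the fibrillar kinds, whereas pluripotent cells rest on a thin matrix of basement membrane type.

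The data follow reprogramming in 3 cell types. Mouse embryonic fibroblasts (MEFs) came from day 13.5 embryos hemizygous for an Oct4-GFP transgene and a Rosa26 allele, and were used within 3 passages. Pre-iPSCs, a stalled intermediate, and induced pluripotent stem cells (iPSCs) were both made from such MEFs with the Yamanaka factors delivered by retrovirus, and were grown for 6 passages before RNA-seq. Both were kept with serum and leukaemia inhibitory factor on a feeder layer of mitomycin C-treated MEFs, which also express collagens. Which of the pre-iPSC clones a library came from is not given in the sources used here. RNA-seq and ChIP-seq for histone H3, H3K4me3 (a mark of active promoters) and H3K27me3 (the mark of Polycomb repression) each had 2 libraries per cell type, and H3K9me3 (a heterochromatin mark) had 1. Paired values belong to library 1 and library 2, and means are given ± SD (n = 2). The study calls the 2 libraries of a cell type biological replicates without saying whether they came from separate cultures, and p-values measure the spread between these libraries.

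The nucleosome calls of the marked libraries held 12007350 to 15222040 reads each, and those of H3 67362868 to 108211816. The H3 library 1 of pre-iPSCs stood apart, with a median of 1.10 RPKM (reads per kilobase, scaled to the uniquely mapped reads) within 1000 bp of the members' start sites against 0.292 in library 2. H3 library 1 of iPSCs lay between, at 0.584 RPKM. MEF nuclei were digested with a different amount of nuclease and for a different time, so digestion and cell type cannot be told apart in any chromatin comparison with MEFs. All 8 pluripotency markers were higher in iPSCs than in MEFs, and 11 of 12 fibroblast markers were lower. In pre-iPSCs the summed pluripotency markers differed between libraries, at 632 and 3524 FPKM (fragments per kilobase of transcript, scaled to the reads mapped). The iPSC sums were 2282 and 2179 FPKM. These sums do not speak for each marker. They include Pou5f1 (Oct4), which is among the Yamanaka factors, and FPKM per gene do not separate RNA of a delivered copy from that of the cell's own gene. Each pre-iPSC library listed 2 of the 8 at 0 FPKM, and the iPSC libraries listed 0 of them there. By the expression test given below, 4 of the 8 rose from MEFs to pre-iPSCs. From pre-iPSCs to iPSCs 6 rose and 0 fell, with a median log2 difference of 5.54 over the 8.

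Collagen RNA fell to a small fraction of its MEF level in pre-iPSCs and was as low in iPSCs. The members' FPKM summed to 5132 and 5057 in MEFs, to 446 and 236 in pre-iPSCs, then to 281 and 343 in iPSCs. The groups did not overlap between MEFs and the other cell types, whereas the iPSC libraries lay between the pre-iPSC ones. On average 6.69% of the MEF sum was left in pre-iPSCs, with 6.13% in iPSCs. As a share of all FPKM the members held 0.830% ± 0.300, 0.0742% ± 0.0378 and 0.0704% ± 0.0242 in MEFs, pre-iPSCs and iPSCs. In bulk RNA, fewer cells of a type and less RNA per cell cannot be told apart.

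The make-up of what remained also differed. Type I collagen, the pair Col1a1 and Col1a2, gave 65.3% and 66.7% of the collagen FPKM in MEFs. It gave 33.6% and 20.0% in pre-iPSCs, then 41.3% and 36.6% in iPSCs. Col18a1, whose product carries the precursor of endostatin in basement membranes, gave 0.371% and 0.0900% in MEFs, 14.1% and 21.3% in pre-iPSCs, with 14.3% and 12.7% in iPSCs. In pre-iPSC library 2 Col18a1 was the member with the largest FPKM. In MEFs 19 and 16 members reached 10 FPKM, in pre-iPSCs 11 and 7, and in iPSCs 8 and 10.

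**Figure D1:**
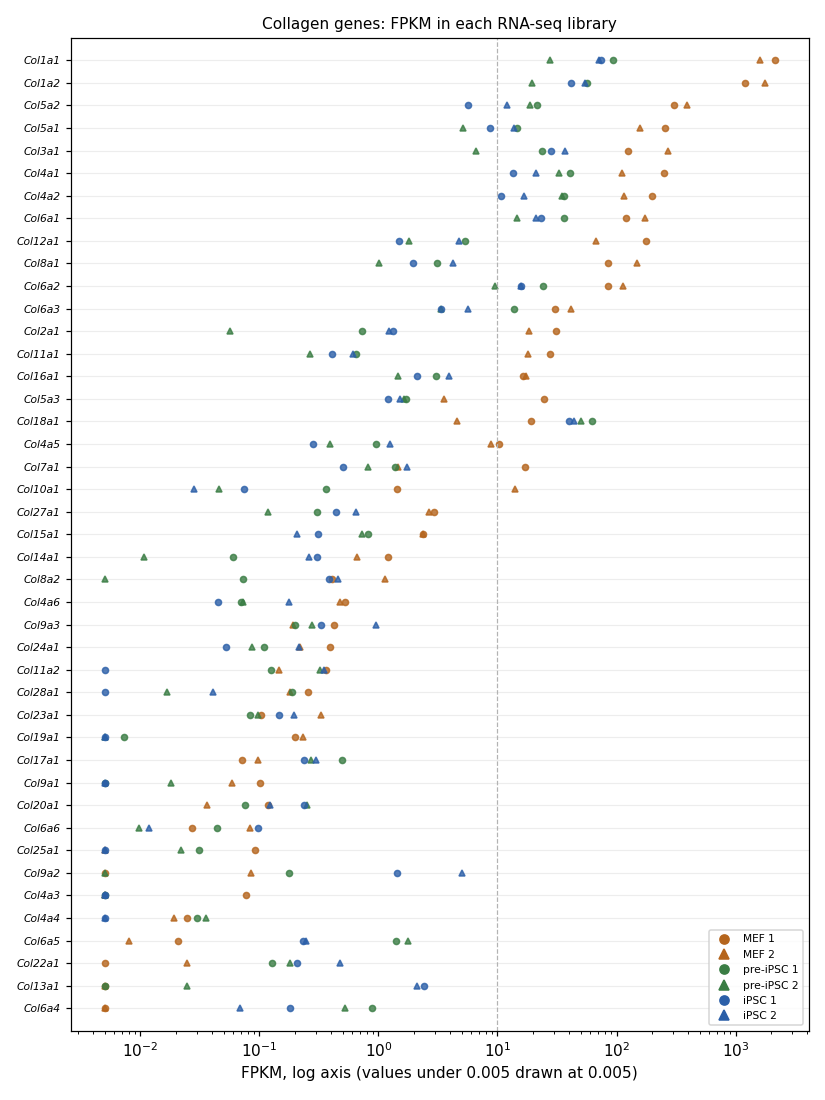
FPKM (log axis) of the 43 collagen genes in the 6 RNA-seq libraries, ordered by their mean in MEFs; circles are library 1 and triangles library 2, the dashed line marks 10 FPKM, and values under 0.005 are drawn at 0.005. Most genes at the top lie far to the right in MEFs (brown) alone, while Col18a1 lies to the right in pre-iPSCs and iPSCs, and Col13a1 and Col9a2 reach 1 FPKM in iPSCs alone.

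Differences were tested with limma on log2(FPKM + 1) in the 12401 genes that averaged 0.5 FPKM or more, a filter that 25 of the 43 members passed. Of these 25, 6 passed only through the cell type where they are high, Col10a1, Col11a1 and Col27a1 through MEFs, Col6a5 through pre-iPSCs, and Col9a2 and Col13a1 through iPSCs, so the counts of calls are a description. Calls needed an adjusted p under 0.05 with a log2 difference of 1 or more. In pre-iPSCs against MEFs 17 of the 25 were called lower and 2 higher, where 9.0% of all genes tested were lower and 7.39% higher. In iPSCs against MEFs 20 were lower and 3 higher, beside 15.5% and 10.3% of all genes. From pre-iPSCs to iPSCs none was lower and 2 were higher, beside 4.71% and 3.91% of all genes. That none was lower depended on the MEF libraries, whose spread enters this test. With either MEF library left out, some members were called lower, as given further on. The median log2 difference of the 25 was -2.50 in pre-iPSCs and -2.63 in iPSCs against MEFs, beside -0.04 and -0.14 over all genes, and 0.04 in iPSCs against pre-iPSCs. Without pre-iPSC library 2 the calls of pre-iPSCs against MEFs were 11 lower and 0 higher. Those of iPSCs against MEFs were 10 lower and 1 higher without iPSC library 1, and 12 lower and 0 higher without iPSC library 2. Of the calls against MEFs, 10 of 19 in pre-iPSCs and 10 of 23 in iPSCs held without any one of the 6 libraries. With no filter on low values limma called 0, 1 and 4 of the 43 members in pre-iPSCs against MEFs, iPSCs against pre-iPSCs and iPSCs against MEFs, and 0, 170 and 549 of all genes. The 8 genes whose calls held in both comparisons with MEFs when any one library was left out were Col1a1, Col1a2, Col2a1, Col5a1, Col5a2, Col8a1, Col11a1 and Col12a1.

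Against MEFs 8 of 9 tested fibrillar collagens were lower in pre-iPSCs and 9 of 9 in iPSCs, beside 9.0% and 15.5% of all genes. Of these 9, Col11a1 and Col27a1 passed the filter only through MEFs, so their calls against MEFs had to be lower. Col1a1, the major chain of type I collagen, stood at 2144 and 1614 FPKM in MEFs, 93.7 and 27.7 in pre-iPSCs, then 74.7 and 70.6 in iPSCs. Its log2 difference was -5.16 (SE 0.51, adjusted p = 0.00158) in pre-iPSCs and -4.66 (SE 0.51, adjusted p = 0.00148) in iPSCs against MEFs. Col1a2, its partner chain, had 1206 and 1761 FPKM in MEFs, 56.3 and 19.5 in pre-iPSCs, with 41.4 and 54.8 in iPSCs. MEFs were clear of the other libraries by more than an order of magnitude for both chains. Col1a1 and Col1a2 FPKM stood in ratios of 1.78 and 0.917 in MEFs, 1.67 and 1.42 in pre-iPSCs, then 1.80 and 1.29 in iPSCs, so that libraries of one cell type differed as much as cell types did.

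Col3a1, which co-assembles with type I fibrils in elastic tissue, measured 126 and 271 FPKM in MEFs, 23.7 and 6.55 in pre-iPSCs, with 28.1 and 37.0 in iPSCs. Relative to the MEF library of the same table, 22.3% and 13.6% of Col3a1 was left in iPSCs, against 3.48% and 4.38% of Col1a1. Col5a1 and Col5a2, which nucleate fibrils and set their diameter, had 257 and 157 FPKM and 302 and 387 FPKM in MEFs. Col5a1 had 14.7 and 5.15 in pre-iPSCs, then 8.61 and 13.7 in iPSCs. Col5a2 had 21.3 and 18.8 in pre-iPSCs, with 5.68 and 12.0 in iPSCs. Its log2 difference of -5.20 (SE 0.39, adjusted p = 0.000723) in iPSCs against MEFs was the largest fall of a tested member on the log2(FPKM + 1) scale. By the ratio of mean FPKM, the tested members Col10a1, Col11a1 and Col12a1 fell further. The cartilage chains Col2a1 and Col11a1 were also expressed in MEFs, at 30.9 and 18.3 FPKM and at 27.6 and 18.2 FPKM. Col2a1 stood at 0.733 and 0.0567 FPKM in pre-iPSCs, then 1.32 and 1.23 in iPSCs, and Col11a1 at 0.650 and 0.265, then 0.410 and 0.615. Col5a3 rested on one MEF library, with 24.4 FPKM in library 1 and 3.53 in library 2. It had 1.72 and 1.63 FPKM in pre-iPSCs, with 1.21 and 1.51 in iPSCs, and was called in iPSCs (log2 difference -2.19, SE 0.65, adjusted p = 0.0454) but not in pre-iPSCs.

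The promoters of 3 of these fibrillar genes show how unlike the members are in base composition. They are printed 5′ to 3′ on the gene's strand from the mm9 genome, from 250 bases before the start given in the tables and ending before any annotated exon. Capitals mark 3 motifs searched on both strands, the CCAAT box, the motif TATAAA of TATA boxes and the GC box GGGCGG, which overlap nowhere in these windows. The Col1a1 window (chr11:94797334-94797537, plus strand), shown as that of the gene with the largest MEF level, has 66.7% G and C, 2 ATTGG at 145 and 119 bases before the start, and 7 CG dinucleotides. That of Col5a1 (chr2:27741695-27741944, plus strand), the member with the largest H3K27me3 gain described further on, has 76.4% G and C and 28 CG. That of Col3a1 (chr1:45368133-45368382, plus strand), a member whose start window did not pass the filter on H3K27me3 counts, has 35.2% G and C and no CG. Whether base composition goes with the H3K27me3 gain was not tested.
Col1a1: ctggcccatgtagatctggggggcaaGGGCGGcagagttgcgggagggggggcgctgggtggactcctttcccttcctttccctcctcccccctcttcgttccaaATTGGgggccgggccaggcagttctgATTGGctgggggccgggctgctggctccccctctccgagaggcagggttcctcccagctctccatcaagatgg
Col5a1: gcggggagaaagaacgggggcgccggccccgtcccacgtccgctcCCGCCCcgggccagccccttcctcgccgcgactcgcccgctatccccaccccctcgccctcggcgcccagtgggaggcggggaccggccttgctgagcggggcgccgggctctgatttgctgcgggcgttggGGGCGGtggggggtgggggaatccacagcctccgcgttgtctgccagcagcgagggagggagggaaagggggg
Col3a1: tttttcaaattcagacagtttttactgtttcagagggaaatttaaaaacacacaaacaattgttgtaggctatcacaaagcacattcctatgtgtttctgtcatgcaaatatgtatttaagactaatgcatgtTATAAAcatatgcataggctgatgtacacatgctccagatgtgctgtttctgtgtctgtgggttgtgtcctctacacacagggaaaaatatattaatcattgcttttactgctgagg
Over the 250 bases before the start, CCAAT on either strand occurred in 13 of the 43 members and in 35.5% of all 20156 genes. TATAAA occurred in 7 members and 11.7% of all genes, and GGGCGG in 25 members and 45.8% of all genes. The Col1a1 window holds a TATAAA 46 bases before the start, in the annotated exon and so not printed. These are matches of letters, not sites shown to be bound. Within 500 bp of the start, the ratio of observed to expected CpG ranged from 0.0844 to 0.874 among members with a median of 0.438, beside 0.601 over all genes, and 12 members reached 0.6, where 50.2% of all genes did.

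Among the basement membrane chains, Col4a1 and Col4a2, which form the common type IV network, have start sites 3 bp apart on opposite strands of chromosome 8 and therefore share their promoter reads. Col4a1 measured 249 and 111 FPKM in MEFs, 40.5 and 32.9 in pre-iPSCs, then 13.4 and 21.1 in iPSCs. Col4a2 followed with 197 and 116, 35.9 and 35.2, and 10.8 and 16.9 FPKM. Their log2 differences in iPSCs against pre-iPSCs were -1.07 (SE 0.47, adjusted p = 0.242) and -1.33 (SE 0.42, adjusted p = 0.105), which did not pass the test although both iPSC libraries lay below both pre-iPSC ones. Against MEFs the log2 differences in iPSCs were -3.23 (SE 0.47, adjusted p = 0.00366) and -3.39 (SE 0.42, adjusted p = 0.00212). The ratio of the chains stayed between 0.937 and 1.27 in all 6 libraries. X-linked Col4a5, which belongs to the kidney and lung basement membrane, had 10.2 and 8.90 FPKM in MEFs and at most 1.25 elsewhere. Col4a3, Col4a4 and Col4a6 were at most 0.521 FPKM in every library.

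The classical chains of type VI collagen, which forms beaded filaments around cells, were called lower in both comparisons with MEFs. Col6a1 stood at 119 and 174 FPKM in MEFs, 36.3 and 14.7 in pre-iPSCs, with 23.0 and 21.0 in iPSCs. Col6a2 had 84.6 and 113 FPKM in MEFs, 24.3 and 9.44 in pre-iPSCs, then 15.8 and 15.7 in iPSCs. The FPKM ratio of Col6a1 to Col6a2 was 1.34 to 1.55 over the 6 libraries. For Col6a3, the third chain of the classical trimer, MEFs had 30.3 and 41.7 FPKM and iPSCs 3.34 and 5.61. Pre-iPSC library 1 had 13.9 FPKM of Col6a3 and library 2 had 3.37. The paralogues Col6a4 and Col6a5, neighbours of Col6a6 on chromosome 9, followed another course, with their largest values in pre-iPSCs. Col6a5 had 0.0205 and 0.00796 FPKM in MEFs, 1.40 and 1.75 in pre-iPSCs, with 0.231 and 0.244 in iPSCs, and was called higher in pre-iPSCs against MEFs (log2 difference 1.34, SE 0.27, adjusted p = 0.0165), having passed the filter only through pre-iPSCs. Col6a4 was listed at 0 in both MEF libraries, at 0.885 and 0.519 FPKM in pre-iPSCs, then at 0.180 and 0.0681 in iPSCs, and did not pass the filter.

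Of 3 tested fibril-associated members 2 were lower in pre-iPSCs and in iPSCs than in MEFs, and Col9a2 was higher in iPSCs. Of 2 tested short-chain network members 1 was lower in pre-iPSCs and 2 were in iPSCs. Of all genes tested 9.0% and 15.5% were lower. Col10a1, the network member called in iPSCs only, passed the filter only through MEFs. Col12a1, which decorates type I fibrils, measured 176 and 67.7 FPKM in MEFs, 5.30 and 1.80 in pre-iPSCs, with 1.49 and 4.76 in iPSCs. Col8a1, a short-chain collagen of vessel walls and the cornea, measured 84.8 and 147 FPKM in MEFs, 3.10 and 1.01 in pre-iPSCs, then 1.93 and 4.21 in iPSCs. In both genes the MEF libraries were well clear of all others, with log2 differences in iPSCs of -4.86 (SE 0.63, adjusted p = 0.00263) and -4.85 (SE 0.52, adjusted p = 0.00146). Col16a1 had 16.4 and 17.4 FPKM in MEFs, 3.07 and 1.46 in pre-iPSCs, then 2.10 and 3.94 in iPSCs. The anchoring fibril gene Col7a1 had 17.0 FPKM in MEF library 1 and 1.46 in library 2, inside the range of the other cell types, and was not called. Col10a1, the collagen of hypertrophic cartilage, reached 13.9 FPKM in MEF library 2 alone and 1.43 in library 1.

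Of the 25 tested members 3 were called higher in iPSCs than in MEFs, beside 10.3% of all genes tested. Col18a1 had 19.0 and 4.55 FPKM in MEFs, 62.7 and 50.3 in pre-iPSCs, with 40.1 and 43.6 in iPSCs. Its log2 difference was 2.44 (SE 0.50, adjusted p = 0.0176) in pre-iPSCs and 2.02 (SE 0.50, adjusted p = 0.0253) in iPSCs against MEFs. The 2 MEF libraries differed from each other by a larger ratio than those of the other groups did, and the iPSC call was lost without MEF library 2 (log2 difference 1.14, adjusted p = 0.0537), iPSC library 1 (2.62, adjusted p = 0.0592) or iPSC library 2 (1.42, adjusted p = 0.197). The pre-iPSC call was lost without pre-iPSC library 2 (2.16, adjusted p = 0.0780).

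Col13a1, a transmembrane collagen of cell contacts, was listed at 0 FPKM in both MEF libraries and in pre-iPSC library 1, at 0.0248 in pre-iPSC library 2, and at 2.41 and 2.12 in iPSCs. Col9a2, a chain of the cartilage collagen that coats type II fibrils, had 0 and 0.0850 FPKM in MEFs, 0.177 and 0 in pre-iPSCs, then 1.42 and 5.02 in iPSCs. Both passed the filter only through iPSCs, where they are high, so their calls had to favour iPSCs. These were the 2 members called higher in iPSCs than in pre-iPSCs, by 1.69 (SE 0.27, adjusted p = 0.0114) and 1.81 (SE 0.41, adjusted p = 0.0372) on the log2 scale. Neither held throughout when libraries were left out. Without either iPSC library Col13a1 did not pass the filter, and the count was 0. Without pre-iPSC library 2 Col9a2 was not called (1.34, adjusted p = 0.122). Without MEF library 1 or MEF library 2 the comparison had 3 members higher and 4 lower. The Col13a1 promoter is shown as that of an iPSC-only member (chr10:61441857-61442106, minus strand of mm9). It has 68.8% G and C and 24 CG, with a TATAAA far from the start, at 237 bases before it.
Col13a1: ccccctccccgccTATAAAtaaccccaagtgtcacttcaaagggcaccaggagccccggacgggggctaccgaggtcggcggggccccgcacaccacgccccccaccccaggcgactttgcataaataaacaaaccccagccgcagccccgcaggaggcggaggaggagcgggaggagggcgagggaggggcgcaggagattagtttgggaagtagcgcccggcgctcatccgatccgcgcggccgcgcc

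**Figure D2:**
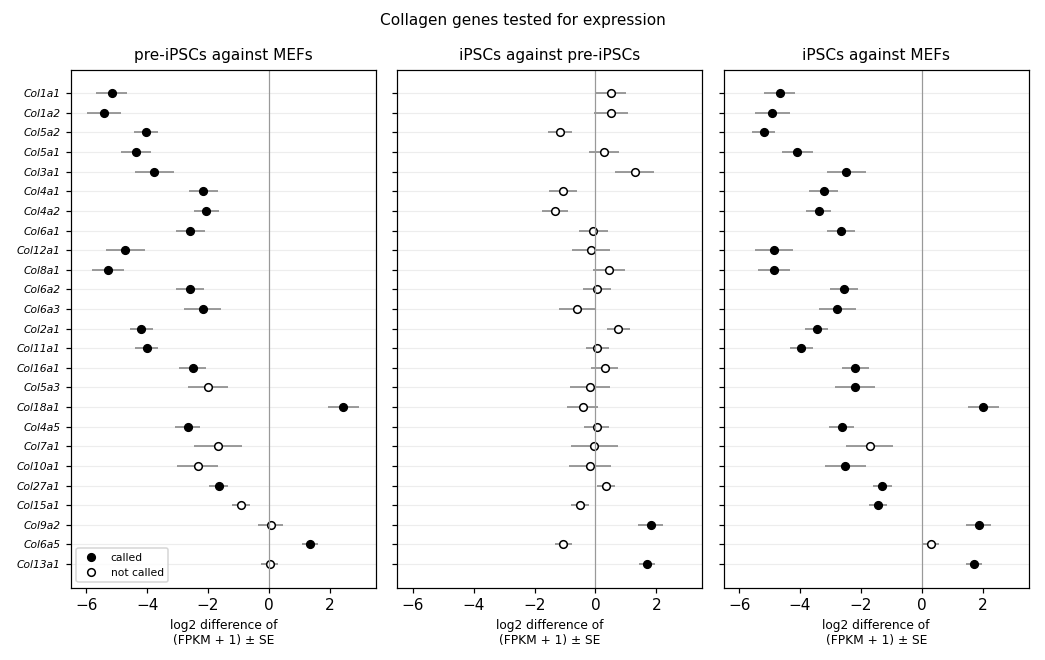
Log2 differences of FPKM + 1 (± SE from limma) of the 25 collagen genes that passed the filter, in the 3 comparisons; filled points were called and open points were not. The left and right panels are filled on the negative side for most genes and on the positive side for Col18a1, with Col6a5 also positive on the left and Col9a2 and Col13a1 on the right, and in the middle panel only Col9a2 and Col13a1 are filled.

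The 18 members that did not pass the filter stayed low in every library, the largest value being 1.20 FPKM of Col14a1 in MEF library 1. They include the hair and skin gene Col17a1 and the neuronal membrane collagen gene Col25a1. Among the tested members of low level, Col15a1 had 2.39 and 2.39 FPKM in MEFs and 0.311 and 0.208 in iPSCs, and Col27a1 had 2.94 and 2.65 in MEFs and 0.439 and 0.652 in iPSCs. Both were called lower in iPSCs against MEFs.

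The level left differed between libraries of one cell type. Shares are given against MEF values that also chose the genes, so they are a description only. Over the 17 members with a mean of at least 10 FPKM in MEFs, called MEF-expressed here, pre-iPSC libraries held a median of 7.05% and 4.85% of the MEF library in the same table, and iPSC libraries 4.95% and 12.1%. For the 10 fibroblast markers with at least 10 FPKM in MEFs the medians were 14.1% and 6.39% in pre-iPSCs, with 5.80% and 7.30% in iPSCs. The 12 fibroblast markers together summed to 5080 and 12906 FPKM in MEFs, 1137 and 1241 in pre-iPSCs, then 296 and 487 in iPSCs. The sum was 13.2% of its MEF level in pre-iPSCs and 4.35% in iPSCs, whereas that of the collagens was 6.69% and 6.13%, and none of the 12 was listed at 0 in any library. The log2 difference in iPSCs against MEFs was -6.40 for S100a4, -4.04 for Prrx1 and -4.01 for Vim. The part of feeder cells in the collagen RNA of pre-iPSCs and iPSCs was not tested. Levels also did not fall in proportion. Among the MEF-expressed members other than Col18a1, the share of the MEF level left in iPSCs ranged from 0.848% for Col12a1 to 22.3% for Col3a1 in library 1, and from 2.86% for Col8a1 to 42.7% for Col5a3 in library 2. The libraries differed in this order, with Col12a1 at 7.02% and Col3a1 at 13.6% in library 2.

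Markers of other cell types that make collagen were read as well. Chondrocyte markers summed to 8.97 and 12.6 FPKM in MEFs and to 1.44 to 3.60 elsewhere, with 1 of 2 tested lower in iPSCs than in MEFs. Smooth muscle markers summed to 7830 and 12757 FPKM in MEFs and 66.4 and 115 in iPSCs, with 4 of 5 lower. Endothelial markers summed to 1.99 and 0.184 FPKM in MEFs, 15.8 and 6.04 in pre-iPSCs, then 17.1 and 13.8 in iPSCs, with 2 of 3 tested called higher in pre-iPSCs and 1 in iPSCs against MEFs. In pre-iPSC libraries Tek, an angiopoietin receptor, gave most of the sum, at 12.7 and 3.94 FPKM, and in iPSCs Pecam1, an adhesion protein, did, at 15.9 and 12.7. Cdh5 was at most 0.106 and Tie1 at most 0.675 FPKM in any library. Col18a1 had its larger values in the same cell types as the sum, and the part of such cells in it was not tested. Macrophage markers summed to at most 11.3 and endoderm markers to at most 4.13. Of the 7 epithelial markers 6 were higher in iPSCs than in MEFs.

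Genes that make, process and bind collagen were counted in the same fit, in which 9.0% of all genes were lower and 7.39% higher in pre-iPSCs, and 15.5% lower and 10.3% higher in iPSCs, each against MEFs. Of 20 tested genes for collagen biosynthesis and export, 9 were lower than in MEFs in pre-iPSCs and 14 were in iPSCs, and none was higher. The log2 difference in iPSCs was -3.60 for Fkbp10, a procollagen foldase, -3.40 for Creb3l1, a factor that turns on secretory and collagen genes, and -3.17 for P4ha3, a prolyl hydroxylase subunit. Fkbp10 and the crosslinking enzymes Loxl4 and Tgm2 were also lower in iPSCs than in pre-iPSCs, where 4.71% of all genes were. Fkbp10 had 72.6 and 65.3 FPKM in pre-iPSCs, then 12.9 and 13.8 in iPSCs, and Loxl4 17.3 and 19.8 against 0.0969 and 0.329. Loxl4 had 15.6 and 12.9 FPKM in MEFs. As a sum, biosynthesis genes kept 31.9% of their MEF level in pre-iPSCs, with 25.9% in iPSCs, beside 6.69% and 6.13% for the collagens.

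Of 12 tested genes for procollagen processing and crosslinking, 7 were lower in pre-iPSCs and 10 were in iPSCs. Lox, the lysyl oxidase that crosslinks fibrils, had 514 and 212 FPKM in MEFs, 9.09 and 4.35 in pre-iPSCs, with 3.27 and 17.0 in iPSCs. Its log2 difference in iPSCs against MEFs was -5.24, that of its relative Loxl1 -4.13 and that of Tll1, a procollagen C-proteinase, -4.07. Of 19 tested collagen-binding matrix proteins 11 were lower in pre-iPSCs, and 13 were lower and 1 higher in iPSCs. Log2 differences in iPSCs were -5.71 for the matricellular protein gene Thbs1, -4.41 for Fmod, which steers fibril assembly, and -3.97 for the microfibril gene Fbn1, and the gene called higher was Nid2, a basement membrane linker, with 16.5 and 10.1 FPKM in MEFs and 30.2 and 39.1 in iPSCs (log2 difference 1.34, adjusted p = 0.0473). Of 7 tested collagen receptors 4 were lower and 1 higher in pre-iPSCs, and 6 were lower in iPSCs, with log2 differences of -4.50 for Itga11, the integrin subunit for fibrillar collagen, -3.28 for the receptor kinase Ddr2 and -3.25 for the integrin subunit Itgb1. Of 6 tested collagenases and gelatinases 3 were lower in each comparison with MEFs and none was called from pre-iPSCs to iPSCs, and those lower in iPSCs against MEFs were Mmp14 (-2.94), Fap (-1.53) and Mmp2 (-1.47).

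H3K27me3 over the gene was called higher in pre-iPSCs at 13 of the 17 MEF-expressed members and lower at none, and at the other 26 members it was higher at 3 and lower at 6, beside 10.5% of all genes higher and 12.6% lower. Within 1000 bp of the start, the MEF-expressed members had a median of 0.121 and 0.185 RPKM in MEFs, 0.563 and 0.611 in pre-iPSCs, then 0.662 and 0.567 in iPSCs. The other 26 members had 0.621 and 0.649 RPKM in MEFs, 0.619 and 0.535 in pre-iPSCs, with 0.533 and 0.597 in iPSCs. Over all genes the median was 0.182 to 0.259 RPKM in the 6 libraries. These medians do not hold for each member. Col2a1 had 0.879 and 0.927 RPKM in MEFs already, and Col3a1 had 0.144 and 0.149 in iPSCs.

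With edgeR, 39 members passed the filter on counts within 1000 bp of the start, with calls at an adjusted p under 0.05. A window with few reads in MEFs passed this filter only through pre-iPSCs or iPSCs, so its call against MEFs had to be a gain. The counts of calls are therefore a description. In pre-iPSCs against MEFs 10 were higher and 0 lower, beside 5.03% and 3.26% of all genes tested. In iPSCs against MEFs 9 were higher and 1 lower, beside 7.28% and 4.10%. From pre-iPSCs to iPSCs the edgeR test called 0 members, beside 0.668% of all genes higher and 0.137% lower, while DESeq2 also called 0. An unadjusted p under 0.05 was found for 3 members and for 1178 of the 10185 genes tested. Against MEFs, DESeq2 called 1 member in pre-iPSCs and 0 members in iPSCs, beside 45 and 19 of all genes, and with 500 bp either side of the start edgeR called 3 in each. Without MEF library 1 there were 4 calls in pre-iPSCs. The edgeR gain was found in 9 of 15 tested MEF-expressed members in pre-iPSCs and 8 of 15 in iPSCs. Members whose window did not pass the filter, such as Col3a1, are not among the 15, so these shares depend on the filter.

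Col1a1 had 0.121 and 0.132 RPKM in MEFs, 0.563 and 0.611 in pre-iPSCs, with 0.778 and 0.567 in iPSCs, a log2 difference of 2.16 (adjusted p = 0.00177) and 2.31 (adjusted p = 0.000391) against MEFs. Col5a1 had 0.0606 and 0.0530 RPKM in MEFs, 0.619 and 0.733 in pre-iPSCs, then 0.662 and 0.477 in iPSCs. Its log2 differences of 3.48 (adjusted p = 1.6e-05) and 3.19 (adjusted p = 8.55e-05) were the largest of the members. The MEF libraries lay below all others in both genes. Both windows were low in MEFs and passed the filter only through the other cell types, so these calls had to be gains. In a second set, Col1a2, Col6a1, Col6a2, Col8a1, Col12a1 and Col16a1 were also called in both comparisons, with log2 differences of 1.42 to 2.17 in pre-iPSCs and 1.86 to 2.47 in iPSCs. Col7a1, the anchoring fibril gene, was called in iPSCs only (1.25, adjusted p = 0.0361), and Col5a3 in pre-iPSCs only (1.66, adjusted p = 0.00188). The one call outside MEF-expressed members in pre-iPSCs was Col20a1 (1.39, adjusted p = 0.0152). These values rest on few reads, since each of these windows held 2 to 14 reads in the MEF libraries. Of the 10 calls in each comparison, 4 in pre-iPSCs and 6 in iPSCs held without any one library. Col1a1, Col5a1 and Col16a1 held in both. For windows low in MEFs the filter fixed the sign, so holding is a description only.

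The calls over whole genes rest on more reads. There 16 of 43 members were higher and 6 lower in pre-iPSCs against MEFs, against the shares of all genes given above. In iPSCs against MEFs 16 were higher and 6 lower again, beside 14.0% and 14.4%. None was called from pre-iPSCs to iPSCs by edgeR or DESeq2, beside 1.06% and 0.306% of all genes by edgeR, and 6 members had an unadjusted p under 0.05, as did 1682 of the 17622 genes tested. Scaled to uniquely mapped reads without TMM, which raised the median of all genes from 0.05 to 0.31 in pre-iPSCs and from 0.04 to 0.33 in iPSCs, both comparisons had 19 members higher and 1 lower, with 2619 higher and 595 lower, then 3405 higher and 627 lower, among all genes. Without MEF library 1 the counts were 12 higher and 2 lower in pre-iPSCs and 13 higher and 1 lower in iPSCs. Of the calls, 12 and 13 held without any one library.

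Over the gene, Col1a1 rose from 0.0700 and 0.207 RPKM in MEFs to 0.711 and 0.839 in pre-iPSCs, with 0.802 and 0.804 in iPSCs (log2 difference 2.24, adjusted p = 1.05e-07 in iPSCs). Col5a1 rose from 0.0974 and 0.177 to 0.860 and 0.828 and then stood at 0.597 and 0.649 RPKM. The paired genes Col4a1 and Col4a2, whose promoter windows were not called, rose over their bodies in iPSCs, Col4a1 by 1.31 on the log2 scale (adjusted p = 1.05e-06) and Col4a2 from 0.179 and 0.264 RPKM to 0.941 and 0.592 (adjusted p = 1.52e-07). In iPSCs 14 of 17 MEF-expressed members were called higher and none lower, and of the other 26 members 2 were higher and 6 lower. Col18a1 was not called in either. It measured 0.311 and 0.477 RPKM in MEFs, 0.605 and 0.544 in pre-iPSCs, then 0.417 and 0.359 in iPSCs. Col3a1 reached 0.233 and 0.231 RPKM in iPSCs from a mean of 0.110 ± 0.0147 in MEFs and was called higher (log2 difference 0.78, adjusted p = 0.0117), and Col2a1 stood at 0.527 and 0.815 RPKM in MEFs with values of 0.697 to 0.819 elsewhere.

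**Figure D3:**
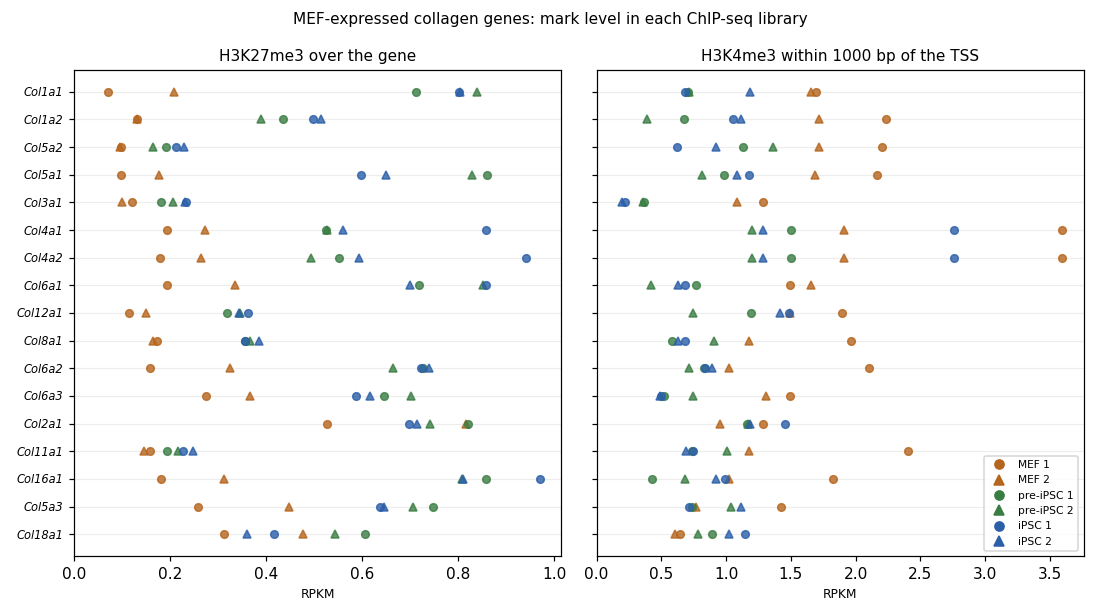
RPKM of H3K27me3 over the gene (left) and of H3K4me3 within 1000 bp of the start (right) for the 17 MEF-expressed collagen genes, ordered by MEF expression, in the 6 libraries of each mark. On the left the MEF points lie below all others in most rows, with Col2a1 and Col18a1 as exceptions. On the right they lie above them in most rows, and Col18a1 again differs.

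The 6 members with less H3K27me3 over the gene in pre-iPSCs were all outside the MEF-expressed class. X-linked Col4a5 and Col4a6 fell by 0.71 (adjusted p = 0.00353) and 1.13 (adjusted p = 7.38e-06) on the log2 scale. The same test called 363 of 599 X-linked genes lower, or 60.6%, with a median of -0.80 beside 0.07 for other genes, so this fall is not particular to the collagens. H3 on the X also differed. Of the H3 reads over genes, 2.40% and 2.65% lay on the X chromosome in MEFs, 0.801% and 1.92% in pre-iPSCs, then 1.33% and 1.81% in iPSCs, and its part in the H3K27me3 fall was not tested. Of the 2 members with higher RNA in pre-iPSCs than in MEFs, 1, Col6a5, had less H3K27me3 over the gene there. Col18a1, the other, was not called. Of all genes with higher RNA there, 49.8% of those tested had less. Col6a5 had 0.464 and 0.418 RPKM in MEFs, 0.314 and 0.356 in pre-iPSCs, with 0.341 and 0.361 in iPSCs. Its log2 difference in pre-iPSCs was -0.67 (adjusted p = 0.00475), a call that was lost without some library. Of the iPSC-only members, Col13a1 was lower over the gene in iPSCs than in MEFs (-0.48, adjusted p = 0.0316). Col9a2 was lower within 1000 bp of the start, at 1.06 and 1.19 RPKM in MEFs, 0.844 and 0.580 in pre-iPSCs, then 0.490 and 0.686 in iPSCs (-1.01, adjusted p = 0.0220). These 2 had no call against pre-iPSCs.

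H3 and H3K9me3 were read at the same windows, and their part in the H3K27me3 difference was not tested. H3 within 1000 bp of the start was called at 0 members in each comparison by edgeR, as at 0.00% of all genes, with 5, 0 and 1 members at an unadjusted p under 0.05 in pre-iPSCs against MEFs, iPSCs against pre-iPSCs and iPSCs against MEFs, where 350, 108 and 245 of the 19578 genes tested were, and DESeq2 called 0 of the members in each. Without pre-iPSC library 2, which leaves the library that stood apart, 15 members were higher and 2 lower in pre-iPSCs against MEFs, and from pre-iPSCs to iPSCs 2 rose and 1 fell, beside 4953 and 2091 of all genes called in those comparisons. Without a call, both iPSC libraries lay above both MEF libraries in H3 RPKM at 25 of 43 members, 16 of them among the 17 MEF-expressed, beside 43.5% of all genes. Genes that share a window, such as Col4a1 and Col4a2, count separately there. Col1a1 had 0.184 and 0.162 RPKM of H3 in MEFs, 1.06 and 0.292 in pre-iPSCs, with 0.664 and 0.346 in iPSCs. Over the gene the libraries were apart in that direction at 28 members, beside 52.8% of all genes, with no test.

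For H3K9me3 there was 1 library per cell type and no test. Over 16 separate start windows of MEF-expressed members it gave 90 reads in MEFs, 175 in pre-iPSCs, then 229 in iPSCs. This is 0.184 RPKM (exact Poisson 95% interval 0.148 to 0.227), 0.341 (0.292 to 0.396) and 0.474 (0.414 to 0.539), where the intervals cover counting error only. These values are pooled over the windows. The medians over the 17 MEF-expressed members were 0.131, 0.312 and 0.430 RPKM, beside all-gene medians of 0.197, 0.218 and 0.265. Of 41 members with at least 10 reads in the MEF and iPSC libraries together, counting genes that share a window separately, 16 had at least 2-fold more in iPSCs than in MEFs, beside 23.2% of all genes, and none at least 2-fold less, beside 6.36%. Each of those 16 windows held only 2 to 8 reads in MEFs. Over the gene the pooled reads of the MEF-expressed members gave 0.278, 0.398 and 0.452 RPKM. Their medians there were 0.276, 0.468 and 0.527 RPKM, beside 0.293, 0.363 and 0.348 for all genes.

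H3K4me3 at the start was called lower than in MEFs at 3 of the 17 MEF-expressed members in pre-iPSCs and 6 in iPSCs, and higher at 1 in iPSCs, Col18a1. The MEF-expressed members had medians of 1.90 and 1.31 RPKM in MEFs, 0.766 and 0.779 in pre-iPSCs, with 0.838 and 1.02 in iPSCs. All genes had 1.22 and 0.955 RPKM in MEFs, 0.858 and 0.812 in pre-iPSCs, then 0.900 and 0.822 in iPSCs. Of 43 members, edgeR called 3 lower in pre-iPSCs than in MEFs and 2 higher, beside 0.856% and 3.02% of all genes. In iPSCs against MEFs 6 were lower and 6 higher, beside 4.15% and 9.79%. None was called from pre-iPSCs to iPSCs, beside 0.0227% and 0.0113% of all genes, and DESeq2 called 0. An unadjusted p under 0.05 was found for 8 members and for 1578 of the 17644 genes tested. Scaled without TMM, which moved the median of all genes from -0.02 to -0.40 in pre-iPSCs and from -0.03 to -0.38 in iPSCs, the counts were 14 lower and 0 higher in pre-iPSCs and 8 lower and 3 higher in iPSCs, with 1134 lower and 232 higher, then 2370 lower and 842 higher, among all genes. DESeq2 called 0 members in pre-iPSCs and 1 higher in iPSCs, and with 500 bp either side of the start edgeR called 0 and 4. Counts over all genes are not given for these settings, so a loss particular to the members cannot be told from a general one.

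All 6 members with lower H3K4me3 in iPSCs were MEF-expressed. They were Col3a1, Col5a2, Col6a1, Col6a3, Col8a1 and Col11a1. Col3a1 had 1.29 and 1.08 RPKM in MEFs, 0.368 and 0.357 in pre-iPSCs, with 0.217 and 0.197 in iPSCs, a log2 difference of -2.15 (adjusted p = 0.000446) in iPSCs, and the libraries of the cell types did not overlap. Col1a2 had 2.24 and 1.72 RPKM in MEFs, 0.674 and 0.390 in pre-iPSCs, then 1.06 and 1.12 in iPSCs, and was called lower in pre-iPSCs only (-1.50, adjusted p = 0.000934). Col1a1 had 1.69 and 1.66 RPKM in MEFs, 0.705 and 0.714 in pre-iPSCs, with 0.683 and 1.18 in iPSCs, and did not pass the test (-0.51, adjusted p = 0.206 in iPSCs). Among the calls against MEFs, 0 of 5 in pre-iPSCs and 4 of 12 in iPSCs held without any one library. Without MEF library 1 there was 1 call in pre-iPSCs, and there were 4 in iPSCs. Pre-iPSCs had 1 call without pre-iPSC library 1, 3 without MEF library 2 and 0 without pre-iPSC library 2, and iPSCs 5 without iPSC library 1.

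Of the 3 members with higher RNA in iPSCs than in MEFs, 2 had higher H3K4me3, beside 21.6% of the corresponding genes tested. Col9a2 and Col13a1 passed the expression filter only through iPSCs, so this count is a description. Col18a1 had 0.643 and 0.605 RPKM in MEFs, 0.889 and 0.779 in pre-iPSCs, then 1.15 and 1.02 in iPSCs (log2 difference 1.13, adjusted p = 0.0123 in iPSCs). Col13a1 had 0.948 and 0.764, 1.16 and 1.17, and 1.52 and 1.35 RPKM (1.09, adjusted p = 0.00527). Neither gene was called in pre-iPSCs against MEFs or in iPSCs against pre-iPSCs. Col9a2 had 1.08 and 0.891 RPKM in MEFs and 1.58 and 0.987 in iPSCs and was not called. Another annotated start of Col18a1 lies 52843 bp upstream of the one in the tables. Around it H3K4me3 ran the other way, at 1.73 and 1.46 RPKM in MEFs, 1.29 and 0.974 in pre-iPSCs, with 0.993 and 1.38 in iPSCs. The other 4 members with a call of higher H3K4me3 in iPSCs, Col9a3, Col11a2, Col20a1 and Col22a1, had a mean of under 1 FPKM in each cell type. The H3K4me3 calls of Col18a1, Col13a1 and Col22a1 were lost without some library, whereas those of Col9a3, Col11a2 and Col20a1 held.

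**Figure D4:**
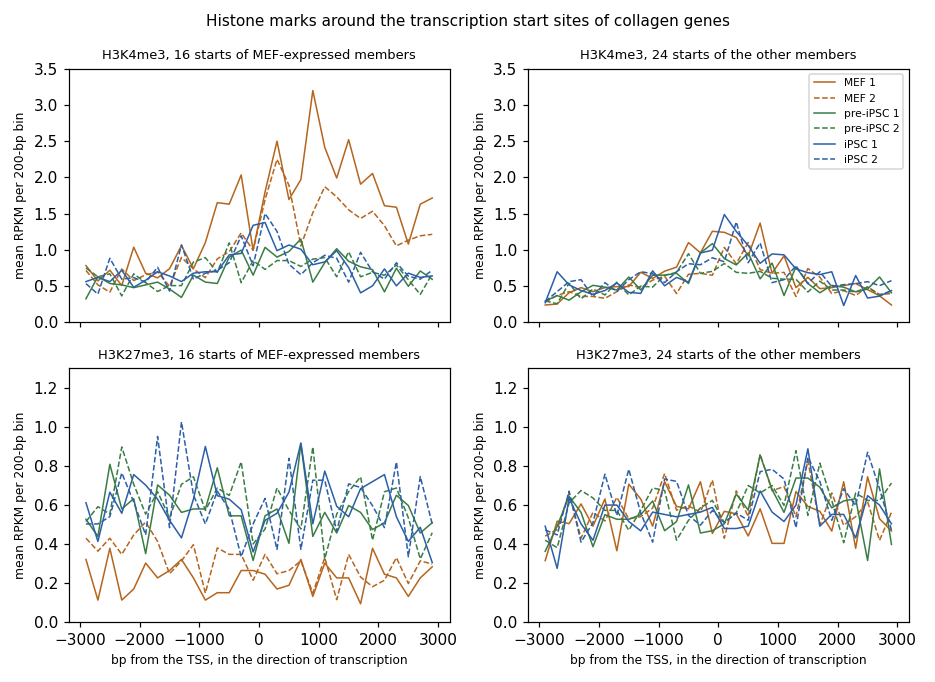
Mean RPKM in 200-bp bins from 3000 bp before to 3000 bp after the start for H3K4me3 (top) and H3K27me3 (bottom), over 16 separate starts of MEF-expressed collagen genes (left) and 24 of the others (right); solid lines are library 1 and dashed lines library 2. At MEF-expressed genes the MEF lines (brown) run above the rest for H3K4me3, mostly downstream of the start, and below most of the rest for H3K27me3 over the window, while the lines of the cell types run together on the right.

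Above 1 RPKM in both libraries, H3K4me3 was present within 1000 bp of the start of 17 members in MEFs, 9 in pre-iPSCs, then 15 in iPSCs, beside 46.2%, 28.8% and 27.3% of all genes. Of the MEF-expressed members 14, 4 and 7 were among them, each count holding both Col4a1 and Col4a2, which share their promoter reads. H3K27me3 reached that level at 1 member in MEFs (Col9a2), 1 in pre-iPSCs (Col2a1) and none in iPSCs, beside 0.705%, 0.392% and 0.238% of all genes. Scaled to the reads in calls, it did at 5, 4 and 1 members. At the first scaling Col2a1 alone had both marks, in pre-iPSCs, with 1.16 and 1.17 RPKM of H3K4me3 and 1.04 and 1.13 of H3K27me3.

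Expression and H3K27me3 came from separate libraries and can be set side by side. Of the 20 members with lower RNA in iPSCs than in MEFs, 15 had more H3K27me3 over the gene and 1, Col4a5, had less. Among all 1927 genes with lower RNA, 48.3% of those tested had more and 1.55% less. Within 1000 bp of the start 8 of the 16 members tested had more, beside 36.6% of the corresponding genes. Both shares cover only windows that passed the count filter. Windows low in MEFs passed it only through the other cell types, so these shares are a description. H3K4me3 was lower at 6 of the 20 members, beside 9.35% of the corresponding genes. No test of these differences between collagens and other falling genes was made.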

How the data were processed

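The authors aligned RNA-seq reads with TopHat2 2.0.4 and deposited FPKM per gene from Cufflinks 2.0.2 in 2 tables, one per replicate. They aligned ChIP-seq reads to mm9 with Bowtie 1.0.1, kept unique reads, called nucleosomes with GeneTrack and deposited read counts per call. Members and gene lists were chosen with earlier results of these data known. Members with a mean of at least 10 FPKM in a cell type, or called from pre-iPSCs to iPSCs, are given in full. Of each other list the 3 genes with the largest called change in iPSCs against MEFs are named. Col6a4, Col14a1, Col15a1, Col17a1, Col25a1, Col27a1, Nid2, Loxl4 and Tgm2 were named after their values were seen.

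On the log2(FPKM + 1) scale, limma 3.58.1 with its trend option tested expression, the table being a term. A fold on this scale understates the change of low genes. The FPKM tables hold no read numbers. The RNA-seq read numbers that the study lists were not used here. Counts of calls were summed over the start ± 1000 bp or over the gene, placing each call at its centre, 73 bp from its start, and tested with edgeR 4.0.16 (quasi-likelihood, TMM, filterByExpr). The library size was the number of uniquely mapped reads that the study lists for each library. RPKM uses the same number. H3 over the gene was compared by whether libraries overlapped. DESeq2 1.42.0, other filters, scalings and windows, and leaving out each library were alternatives. The p-values were adjusted by the Benjamini-Hochberg method over all genes tested. Scripts were tested on simulated data. Counts of single calls cover counting error only, and reads are not independent molecules. Gene positions are those of the tables, and exons were taken from GENCODE M1. Emid2, the older symbol of 1 further collagen gene, does not match the rule and was left out.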

Additional observations from a re-analysis of the deposited data

How the results depend on the processing

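Each count of called collagen genes was recomputed under the alternatives. Where no count over all genes stands beside such a count, it does not tell whether calls were lost at collagen genes in particular. Of the members' differences that were called, none changed sign in the 1390 alternative values that could be fitted, whereas differences that were not called changed sign in 431 of 5261. The alternatives reused the same libraries, and the called differences had been chosen as large against their spread. A kept sign was therefore likely from the start and is a description only. With no filter on low values, 0, 1 and 4 members were called for expression in pre-iPSCs against MEFs, iPSCs against pre-iPSCs and iPSCs against MEFs, and a filter at 1 FPKM left 1 in the second, because Col13a1 then was not tested. The cause of the loss with no filter was not tested. DESeq2 called 0 and 1 members for H3K4me3 and 1 and 0 for H3K27me3 around the start in pre-iPSCs and iPSCs against MEFs. With 500 bp either side of the start these were 0 and 4 for H3K4me3 and 3 and 3 for H3K27me3, where fewer members were tested (37 and 25). Without TMM 14 members were called for H3K4me3 in pre-iPSCs, and the same change moved the all-gene median log2 difference of H3 to 0.92 in pre-iPSCs and 0.60 in iPSCs with 0 calls. With a threshold of 2 RPKM no member had either mark, 0 in place of 17, 9 and 15 for H3K4me3. Scaled to reads in calls, 5, 4 and 1 members had H3K27me3 in MEFs, pre-iPSCs and iPSCs, and with 500 bp either side 2 had it in MEFs.

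Leaving out each library in turn gave 11 to 21 expression calls in pre-iPSCs against MEFs, 0 to 7 in iPSCs against pre-iPSCs and 11 to 24 in iPSCs against MEFs. The ranges were 0 to 7 and 4 to 12 for H3K4me3, and 4 to 10 and 7 to 10 for H3K27me3 around the start, in pre-iPSCs and iPSCs against MEFs. For H3K27me3 over the gene they were 14 to 25, 0 to 1 and 14 to 22 in the 3 comparisons in the order above. For H3 they were 0 to 17, 0 to 3 and 0 to 0. A lone library was taken to vary like the other groups.

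Replicate differences of the cell types correlated at -0.20 to 0.35 for expression, -0.02 to 0.11 for H3K4me3 and -0.01 to 0.09 for H3K27me3. For H3 they were -0.05 and -0.01 with MEFs but 0.81 between pre-iPSCs and iPSCs, where library 1 was high in both. No assay had a positive correlation above 0.1 in each pair of cell types, so the numbers were not taken to pair the libraries as samples. The expression fit still had the table as a term, since each replicate table was made separately, and that term is the replicate block. With the replicate block the calls were 5, 0 and 12 for H3K4me3, 10, 0 and 9 for H3K27me3 around the start, 20, 0 and 22 over the gene and 0, 0 and 0 for H3. Without the table term expression had 19, 3 and 23. Precision is limited by 2 libraries a group, by few reads around the starts for H3K27me3, and by 1 library a cell type for H3K9me3, which had no alternative.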
